A study of Mus musculus with 24 samples.

Results

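Macrophages of the pressure-overloaded mouse heart were followed here through 36 genes, picked by gene symbol and sorted into 4 classes. The 7 resident genes (Lyve1, Timd4, Folr2, Cd163, Mrc1, F13a1 and Cbr2) mark macrophages that live in the heart. The 4 recruited genes (Ccr2, Plac8, Chil3 and Arg1) mark cells that arrive from blood monocytes, and the 3 lipid-handling genes (Trem2, Gpnmb and Lgals3) mark macrophages loaded with lipid and debris. The other 22 are general genes of macrophages and their relatives, from Csf1r and Cd68 to Spi1. All 36 were found among the 24015 genes of the count table. Of these, 35 passed the filter on low counts and were tested together with all 13816 genes that passed it, while Arg1 did not pass.

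The RNA came from left ventricles of mice, taken 2, 4, 7 or 21 days after transverse aortic constriction (TAC) or a sham operation. TAC is a surgical narrowing of the aorta that puts the left ventricle under pressure overload. Each of the 8 groups, sham and TAC at each of the 4 days, held 3 libraries, 24 in all. Strain, genotype, age and sex of the mice, the tightness of the constriction and any treatment are not stated in the labels. Nor do these say that the 3 libraries of a group came from different mice, and p-values then measure no more than the spread between libraries, which may be technical.

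Macrophages are phagocytes that clear dead cells, sense damage and shape repair. In the heart one population is seeded before birth, renews itself locally and carries Timd4, Lyve1 and Folr2. Another is replenished from circulating monocytes, which enter tissue with the help of the chemokine receptor CCR2. Both depend on the receptor CSF1R and its ligands, and their genes are switched on by the transcription factor PU.1, the product of Spi1.

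Values are given as counts scaled to library depth (CPM) after TMM (trimmed mean of M-values) scaling, in the order of replicates 1, 2 and 3, and the 3 sham libraries stand before the 3 TAC libraries of the same day. Changes are given on the log2 scale, TAC relative to sham, ± standard error (SE), with edgeR's quasi-likelihood test and Benjamini-Hochberg adjustment over all 13816 genes. A gene is said to rise or fall where its adjusted p was under 0.05. Total counts ran from 10689684 to 17563210 per library, of which the 36 genes took 0.0423% to 0.144%. The heart muscle gene Myh6 was at 24247 CPM or more in every library, and Myl7, an atrial myosin light chain, passed 30 CPM in 4 libraries: sham replicates 2 and 3 of day 2, TAC replicate 1 of day 7 and sham replicate 2 of day 21. Sham replicate 3 of day 4 held 37.9 CPM of 5 adipocyte genes, against at most 2.50 CPM in any other library, and 26 of the 35 genes rose at day 4 without it. The files do not say whether the RNA strand was kept, and reads of close paralogs (Lyz1 beside Lyz2, Chil4 beside Chil3, or the Fc receptor genes among themselves) may have been counted under a listed symbol.

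Macrophage genes were higher after TAC from day 2 to day 7, most broadly at day 4. At day 2, 13 of the 35 tested genes rose and 0 fell, when 3.73% of all genes rose and 0.854% fell. At day 4, 29 rose and 0 fell, against 14.4% and 10.1% of all genes. By day 7 the count was 18 up and 0 down, against 13.1% and 10%. At day 21, 0 rose and 0 fell in edgeR's test, against 0.622% and 0.47%. DESeq2, which gave an adjusted p for 29 of the 35, called 0 of them, against 254 higher and 207 lower of all 13816 genes. The limma-voom test called 0 of the 35, against 46 higher and 41 lower of all genes. At an unadjusted p under 0.05 in edgeR's test, 9 of the 35 were higher and 1 lower, against 1278 and 1122 of all 13816 genes. The median log2 fold change of the 35 genes was 0.79, 1.40, 0.84 and 0.49 at days 2, 4, 7 and 21, while the median of all tested genes lay between -0.01 and 0.01. RNA of whole tissue cannot tell more macrophages from more of a transcript per macrophage.

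Counts and medians differed by class. Of the 7 resident genes 1, 3, 1 and 0 rose at days 2, 4, 7 and 21, with medians of 0.25, 0.23, 0.02 and 0.15. Of the 3 tested recruited genes 2, 2, 1 and 0 rose, and of the 3 lipid-handling genes 2, 3, 2 and 0. Of the 22 general genes 8, 21, 14 and 0 rose, with medians of 0.85, 1.48, 0.86 and 0.52. Of all genes, 3.73%, 14.4%, 13.1% and 0.622% rose at these days, so the resident count of 1 of 7 at day 7 was near that share. No test was made of the difference between classes.

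The separation of the raw values was also counted. All 3 TAC libraries stood above all 3 sham libraries for 11, 30, 23 and 11 of the 35 genes at days 2, 4, 7 and 21, against 11.2%, 21.5%, 20.5% and 11.9% of all genes. Day 21 thus had as many separated genes as day 2, though 0 passed the test there. The opposite order, all TAC below all sham, was seen for 0 of the 35 at each of the 4 days.

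The calls of days 2 and 7 rested on single libraries more than those of day 4. At day 2 the count of 13 became 5, 0 and 2 without sham replicates 1, 2 and 3, and 21, 6 and 0 without TAC replicates 1, 2 and 3. In the 2 fits that called 0, 23 and 15 of the 35 genes were higher at an unadjusted p under 0.05. With every library, 22 of the 35 and 1717 of all 13816 genes were higher at that p in edgeR's test. The calls over all genes changed as well. From 515 of 13816 with every library, the genes that rose became 92, 8 and 71 without the sham replicates. Without the TAC replicates they became 1242, 303 and 9, with 13978 to 14003 genes tested in these fits. At day 7 the count of 18 became 5, 14 and 4 without the sham replicates in turn and 2, 20 and 9 without the TAC replicates. Over all genes the 1816 that rose became 1193, 1262 and 963, and 887, 2224 and 1201, in the same order. At day 4 the count of 29 stayed between 23 and 28, and the 1995 of all genes became 1060 to 2243. Of the calls themselves, 0 of 13, 20 of 29 and 2 of 18 held in all 6 of these fits at days 2, 4 and 7. With the 4 Myl7-rich libraries left out (a fit added once the data had been seen) edgeR called 27 and 0 genes higher at days 4 and 7. At an unadjusted p under 0.05, 29 and 13 were higher in that fit. With every library the unadjusted counts were 29 and 23 of the 35, and 2784 and 2783 of all 13816 genes. Counts over all genes in the fit without these libraries are not given here. This fit leaves 1 sham library at day 2, which is taken to vary like the other groups, so no count is given for that day.

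**Figure D1:**
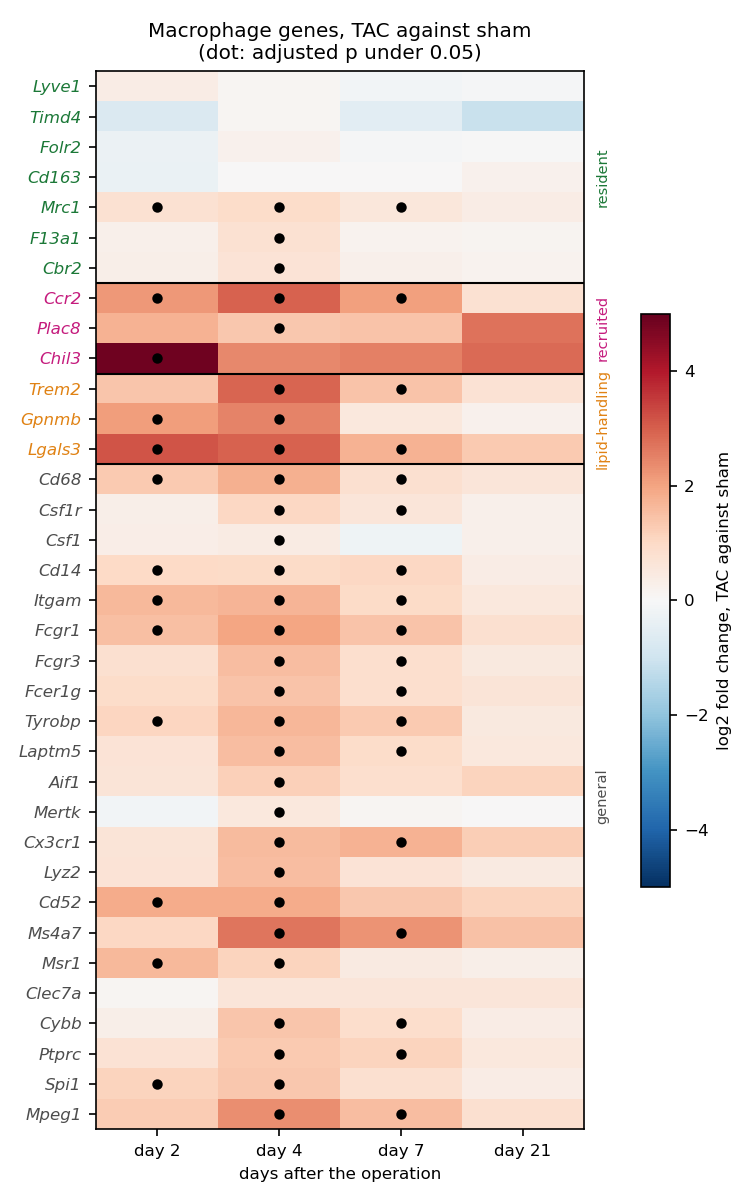
Log2 fold change of TAC against sham (colour) for each of the 35 tested macrophage genes (rows, coloured and divided by class) at each day (columns), with a dot where the adjusted p was under 0.05. The dots number 13, 29, 18 and 0 at days 2, 4, 7 and 21, and the upper resident rows, Lyve1 to Cd163, have none.

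Averaged over the 4 days, 30 of the 35 genes rose and 0 fell, against 24.4% and 21.4% of all genes. The 5 that did not rise were Lyve1 (0.07 ± 0.10), Timd4 (-0.56 ± 0.23), Folr2 (-0.04 ± 0.12), Cd163 (-0.01 ± 0.11) and Mertk (0.13 ± 0.08). So 4 of the 5 are resident genes and the other, Mertk, is a receptor for dead cells. The averages that rose furthest were those of Chil3 (3.15 ± 1.21), Lgals3 (2.29 ± 0.29), Ccr2 (1.98 ± 0.32), Ms4a7 (1.85 ± 0.29) and Plac8 (1.80 ± 0.31). Timd4 missed the threshold on the lower side (adjusted p = 0.0531), and DESeq2 and limma-voom each called it lower.

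Per transcript length, the sham heart held all 4 classes at very different levels. In RPKM (reads per kilobase, scaled to depth, from the authors' table), mean ± SD over 12 sham libraries, Lyz2, which encodes lysozyme, led with 78.6 ± 12.1. Csf1, the growth factor of macrophages, followed at 24.04 ± 5.73, then the resident gene Cbr2, a carbonyl reductase, at 19.5 ± 4.29. Fcer1g, an adaptor of Fc receptors, was at 17.9 ± 3.25, F13a1 at 13.1 ± 2.56, Csf1r at 12.8 ± 1.09, Mrc1 at 10.02 ± 1.44 and Folr2 at 9.60 ± 1.97. Most neighbours in the order of the 36 differed by less than the larger of their SDs. The exceptions were 8 of 35 pairs: Lyz2 over Csf1, Fcer1g over F13a1, Csf1r over Mrc1, Tyrobp over Cd163, Mpeg1 over Ptprc, Ccr2 over Gpnmb, Gpnmb over Arg1 and Arg1 over Chil3.

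All recruited and lipid-handling genes lay at the lower end of that order, beside the general genes Clec7a and Fcgr1. Trem2 stood at 1.02 ± 0.297 RPKM, Lgals3 at 1.01 ± 0.395, Plac8 at 0.803 ± 0.715, Ccr2 at 0.676 ± 0.189 and Gpnmb at 0.371 ± 0.122. Arg1 (0.182 ± 0.120) and Chil3 (0.0615 ± 0.0655) closed it. The RPKM of Arg1 was above 0 in 12 libraries whose count was 0, so the authors' 2 tables differ for this gene, and its results rest on the counts. Of the resident genes, Timd4 was the lowest, at 1.29 ± 0.402 RPKM. Over the 12 TAC libraries, pooled across days, Lyz2 averaged 148 RPKM, Ccr2 3.06 and Folr2 9.56.

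**Figure D2:**
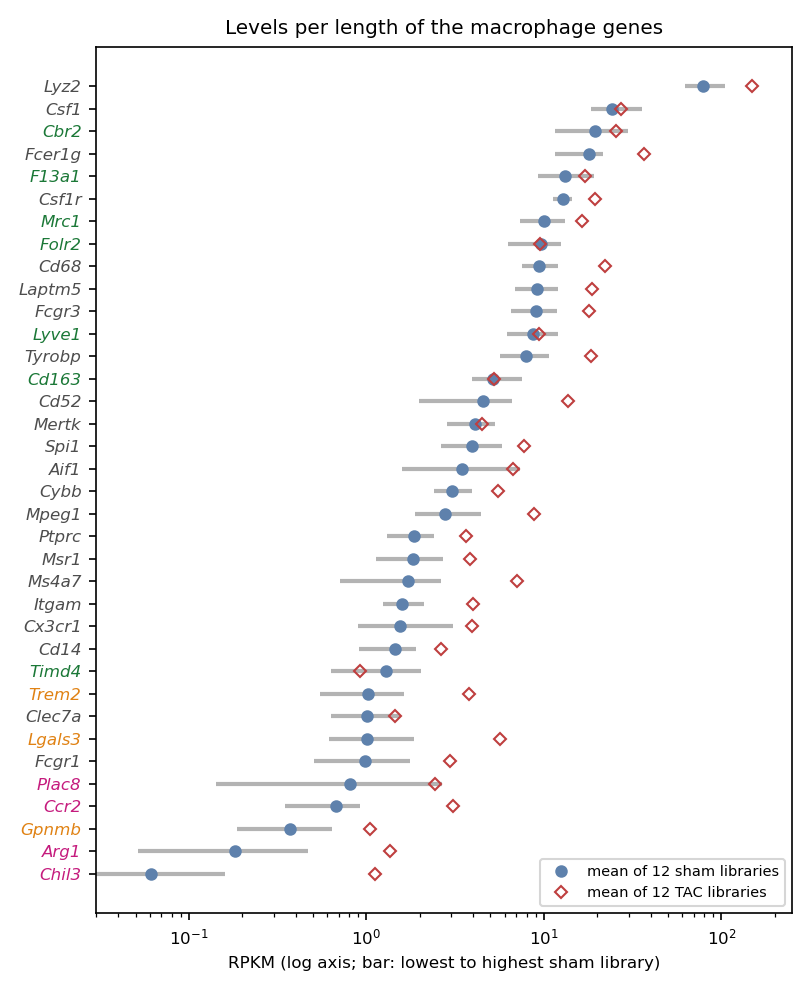
Level per transcript length (RPKM, log axis) of the 36 macrophage genes, ordered by their mean in sham hearts; circles are means of 12 sham libraries, bars run from the lowest to the highest sham library, diamonds are means of 12 TAC libraries, and gene names are coloured by class as in the heat map. The lowest sham library of Chil3 was at 0 and its bar is drawn to the axis edge; the recruited genes sit at the low end with diamonds far to the right of their circles, and those of Folr2 and Cd163 lie on their circles.

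Among the resident genes, those of the self-renewing population did not pass the test at any day. Lyve1, a hyaluronan receptor that lymphatic vessels also carry, was at 33.1, 23.4 and 27.1 CPM in sham and 41.3, 36.2 and 32.1 in TAC hearts at day 2 (0.39 ± 0.19, adjusted p = 0.271). At day 4 Lyve1 stood at 18.4, 18.7 and 20.4 against 16.7, 15.9 and 28.3 CPM (0.09 ± 0.20). The groups overlapped at each day, and the effect was -0.12 ± 0.20 at day 7 and -0.06 ± 0.20 at day 21. Folr2, a folate receptor, had effects of -0.28, 0.23, -0.08 and -0.04 (SE 0.23 to 0.25), and Cd163, the scavenger receptor for haptoglobin and hemoglobin, of -0.32, 0.02, 0.02 and 0.23 (SE 0.22 at each day).

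Timd4, a receptor that binds phosphatidylserine on dying cells, had the lowest average effect of the 35 genes, and did not pass the test at any day. Its sham libraries held 4.81, 3.69 and 3.80 CPM at day 2 and its TAC libraries 4.50, 1.79 and 1.29 (-0.73 ± 0.44, adjusted p = 0.366). At day 21 the values were 2.99, 2.07 and 3.37 against 0.891, 2.36 and 0.737 CPM (-1.10 ± 0.49, adjusted p = 0.252). At each of these days 1 TAC library lay within the sham range, replicate 1 at day 2 and replicate 2 at day 21, and the others lay below it. Without TAC replicate 1 of day 2, Timd4 was called lower at that day (-1.41, adjusted p = 0.0414). These are few reads, 10 to 73 per library.

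Mrc1, the mannose receptor, was the resident gene called at the most days. Its level went from 75.3, 60.3 and 58.4 to 77.7, 119 and 135 CPM at day 2 (0.78 ± 0.17, adjusted p = 0.0143) and from 54.1, 58.3 and 60.7 to 119, 104 and 107 at day 4 (0.93 ± 0.17, adjusted p = 0.000853). At day 7 it was at 51.1, 56.1 and 50.7 against 84.4, 68.0 and 78.8 CPM (0.55 ± 0.17, adjusted p = 0.0242). The groups did not overlap at these 3 days and did at day 21 (0.36 ± 0.17, adjusted p = 0.279). The call of day 4 held without each library, that of day 2 in 3 of 6 fits and that of day 7 in 2 of 6.

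F13a1, which encodes the A chain of coagulation factor XIII and is also made by monocytes, and Cbr2 rose at day 4 alone among the days. F13a1 went from 48.6, 51.5 and 45.4 to 85.9, 83.5 and 78.3 CPM (0.77 ± 0.13, adjusted p = 0.000596), and Cbr2 from 14.5, 15.8 and 14.4 to 19.4, 25.9 and 25.6 CPM (0.67 ± 0.16, adjusted p = 0.00601). Both calls held without each library of the day. From day 2 to day 4 the sham mean went from 66.8 to 48.5 CPM for F13a1 and from 18.7 to 14.9 CPM for Cbr2. The TAC means of these days were 79.6 and 82.6 CPM for F13a1 and 23.1 and 23.6 CPM for Cbr2. So the sham level moved more between these days than the TAC level. At day 7 all TAC libraries of both genes were still above all sham libraries, though barely for Cbr2 (17.3, 16.9 and 15.1 against 17.3, 20.9 and 21.1 CPM), and neither passed the test. Summed over the 7 resident genes, the sham libraries of day 4 held 167 to 177 CPM and the TAC libraries 268 to 276. The largest parts of that sum were Mrc1, with means of 57.7 CPM in sham and 110 in TAC hearts, and F13a1, with 48.5 and 82.6 CPM. Lyve1, Timd4, Folr2 and Cd163 did not pass the test at that day, so the sum does not stand for each gene of the class.

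The promoters of 2 resident genes that differed in response, Mrc1 and Cd163, and of the recruited gene Ccr2 are shown here, since many macrophage promoters are bound by PU.1. Each is the 250 bases before the start of the gene, 5′ to 3′ on the gene's strand (the + strand in all 3), from RefSeq on GRCm38.p6, at chr2:14229164-14229413, chr6:124304401-124304650 and chr9:124101933-124102182. Capitals mark matches to GAGGAA, a short core of PU.1 and related ETS sites, or to its reverse complement TTCCTC. 
Mrc1: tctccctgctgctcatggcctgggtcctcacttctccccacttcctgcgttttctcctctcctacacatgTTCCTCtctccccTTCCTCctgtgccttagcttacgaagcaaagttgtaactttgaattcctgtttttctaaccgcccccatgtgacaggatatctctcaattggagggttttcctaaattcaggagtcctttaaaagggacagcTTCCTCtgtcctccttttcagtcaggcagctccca
Cd163: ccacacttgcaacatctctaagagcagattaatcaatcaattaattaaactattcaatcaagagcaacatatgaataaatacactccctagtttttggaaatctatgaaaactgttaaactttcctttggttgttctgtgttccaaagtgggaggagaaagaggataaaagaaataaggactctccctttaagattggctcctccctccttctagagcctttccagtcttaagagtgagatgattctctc
Ccr2: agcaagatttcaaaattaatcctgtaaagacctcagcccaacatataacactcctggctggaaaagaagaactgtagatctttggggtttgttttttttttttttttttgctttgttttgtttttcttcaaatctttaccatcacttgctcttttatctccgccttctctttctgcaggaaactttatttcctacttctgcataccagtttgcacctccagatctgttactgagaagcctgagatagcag
Mrc1 held 3 such matches, all as TTCCTC, at 180, 167 and 35 bases before the start, and Cd163 and Ccr2 held none. The longer core GAGGAAGT, on either strand of the window from 250 bases before to 50 after the start, was found in 1 of the 28 macrophage genes with a promoter in the table (3.57%), F13a1, and in 3.64% of 17492 protein-coding genes. The short core, picked after that count was seen and contained in the longer one, was found in 15 of the 28 (53.6%) and in 30.5% of protein-coding genes. A match is a string of letters and not a bound site.

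The recruited genes were low in sham hearts and varied widely between TAC libraries. Ccr2, the receptor through which monocytes follow Ccl2, went from 2.63, 3.81 and 3.44 CPM to 2.01, 13.6 and 28.6 at day 2 (2.18 ± 0.61, adjusted p = 0.0431). At day 4 it went from 1.32, 3.49 and 3.93 to 28.4, 15.1 and 24.8 CPM (2.95 ± 0.63, adjusted p = 0.00269), a 7.73-fold change. At day 7 the values were 1.66, 3.80 and 2.22 against 18.7, 4.89 and 7.72 CPM (2.05 ± 0.65, adjusted p = 0.0293), and at day 21 the groups overlapped (0.76 ± 0.66). At day 2, TAC replicate 1 lay below all sham libraries while replicate 3 was the highest of the 12 TAC libraries. The call of day 4 held without each library, those of days 2 and 7 in 1 and 3 of 6 fits.

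Chil3 and Arg1, enzymes and lectins of freshly arrived and alternatively activated macrophages, were measured almost only at day 2. Chil3, a chitinase-like protein, had 3, 4 and 1 reads in the sham libraries and 5, 47 and 225 in the TAC libraries of day 2 (4.86 ± 1.0, adjusted p = 0.0128; called in 2 of 6 fits that left out a library). At day 4 TAC replicate 1 had 31 reads, and every other library of days 4, 7 and 21 had 8 or fewer. Arg1, an arginase that breaks down arginine, had 1, 1 and 0 reads in sham and 0, 62 and 260 reads in TAC libraries at day 2. Its TAC libraries held 5, 1 and 10 reads at day 4, and all others 3 or fewer. In a fit without a filter, over 18660 genes, Arg1 had a log2 fold change of 6.86 ± 1.28 at day 2 (adjusted p = 0.0056).

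For both genes the signal of day 2 sat in replicates 2 and 3, and replicate 1 of the TAC group was at or near the sham level. Plac8, a small cysteine-rich protein of monocytes and other leukocytes, rose at day 4, from 0.440, 0.812 and 1.37 to 1.90, 1.60 and 3.16 CPM (1.34 ± 0.48, adjusted p = 0.0463; called in 2 of 6 fits). At day 21 its sham libraries held 1 read each and its TAC libraries 5, 5 and 11 (2.70 ± 0.83, adjusted p = 0.105). Summed over the 4 recruited genes, sham libraries held 1.82 to 5.62 CPM over all days. The TAC libraries held 2.82, 21.0 and 58.2 CPM at day 2, 32.7, 17.0 and 28.9 at day 4, 19.7, 5.61 and 9.18 at day 7, and 7.48, 3.14 and 7.81 at day 21.

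**Figure D3:**
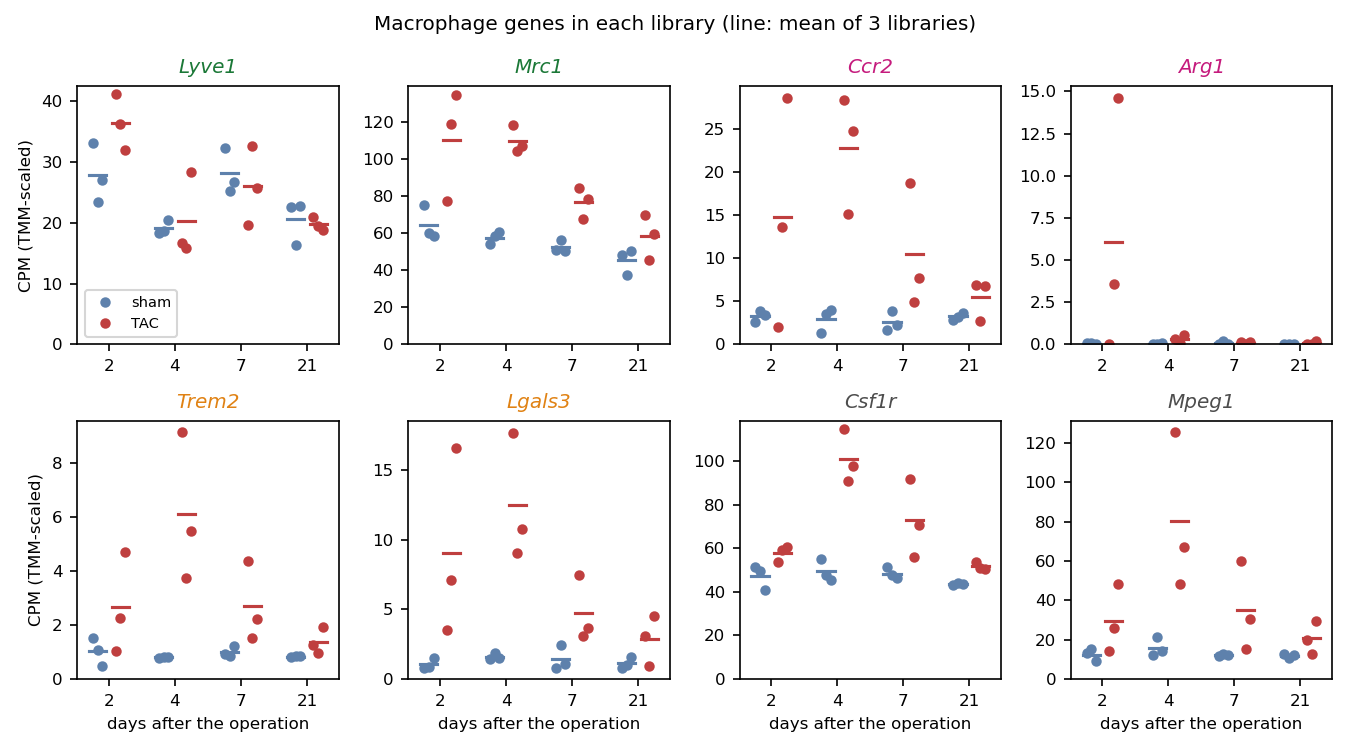
CPM (linear axes from 0, TMM-scaled) of 8 macrophage genes in every library by day after the operation, sham in blue and TAC in red, with a line at the mean of 3 libraries. Lyve1 overlaps at each day, Arg1 rises above 1 CPM only in TAC replicates 2 and 3 of day 2 (3.58 and 14.6 CPM), and Ccr2 in TAC replicate 1 of day 2 (2.01 CPM) lies below the sham libraries.

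All 3 lipid-handling genes rose at day 4. Trem2, a lipid-sensing receptor that signals through the adaptor TYROBP, went from 0.791, 0.812 and 0.803 to 9.15, 3.76 and 5.51 CPM (2.92 ± 0.50, adjusted p = 0.000625, 7.57-fold). It also rose at day 7, from 0.947, 0.865 and 1.24 to 4.39, 1.52 and 2.22 CPM (1.42 ± 0.50, adjusted p = 0.0441), a call that held in 1 of 6 fits. Lgals3, the galactoside-binding lectin galectin-3, rose at days 2, 4 and 7. At day 2 it went from 0.790, 0.847 and 1.51 to 3.54, 7.11 and 16.6 CPM (3.13 ± 0.56, adjusted p = 0.00769), and here replicate 1 of the TAC group too was above all sham libraries. At day 4 Lgals3 was at 17.7, 9.04 and 10.8 CPM after TAC against 1.41, 1.87 and 1.53 (2.96 ± 0.54, adjusted p = 0.000992), and at day 7 its effect was 1.75 ± 0.57 (adjusted p = 0.032).

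Gpnmb, a glycoprotein of lysosome-rich macrophages, rose at days 2 and 4 and did not pass the test afterwards. Its values were 0.724, 1.45 and 1.58 against 3.30, 4.45 and 8.36 CPM at day 2 (2.11 ± 0.60, adjusted p = 0.049) and 0.791, 1.54 and 1.04 against 12.7, 4.10 and 2.25 CPM at day 4 (2.47 ± 0.63, adjusted p = 0.008). At day 7 only TAC replicate 1, at 4.70 CPM, was above the sham libraries (0.51 ± 0.63). The summed level of the class was 2.84 to 4.93 CPM over all sham libraries, and 39.5, 16.9 and 18.6 CPM in the TAC libraries of day 4.

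Among the general genes, Csf1r, the receptor through which macrophages survive and divide, rose at days 4 and 7. It went from 55.1, 47.7 and 45.5 to 115, 90.7 and 97.7 CPM at day 4 (1.03 ± 0.13, adjusted p = 0.00017) and from 51.5, 47.6 and 46.2 to 92.0, 56.2 and 70.6 CPM at day 7 (0.59 ± 0.13, adjusted p = 0.00403). Both calls held without each library of the day, and the groups did not overlap at any of the 4 days. At days 2 and 21 the effects were 0.30 ± 0.13 (adjusted p = 0.208) and 0.25 ± 0.13 (adjusted p = 0.351). Its ligand Csf1, which fibroblasts and endothelium also make, changed less: 67.9, 83.8 and 64.1 against 83.6, 98.3 and 103 CPM at day 4 (0.40 ± 0.14, adjusted p = 0.0434, called in 2 of 6 fits). At day 7 Csf1 stood at 124, 89.5 and 109.7 CPM in sham and 91.0, 94.3 and 96.6 in TAC hearts (-0.20 ± 0.14). Spi1, the gene of PU.1, rose at day 2 (1.10 ± 0.29, adjusted p = 0.0337, called in 1 of 6 fits) and at day 4, from 5.01, 5.77 and 3.69 to 14.5, 10.3 and 12.2 CPM (1.35 ± 0.29, adjusted p = 0.00269).

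Of the general genes whose products work in phagosomes and lysosomes, 5 are described next, and each rose at day 4. Cd68, a lysosomal glycoprotein, rose at all of days 2, 4 and 7: from 11.4, 11.9 and 10.8 to 15.5, 24.6 and 43.5 CPM at day 2 (1.30 ± 0.26, adjusted p = 0.0101), and to 55.2, 29.3 and 34.1 CPM at day 4 from 11.1, 12.2 and 11.001 (1.79 ± 0.26, adjusted p = 0.000228). Mpeg1, a pore-forming protein of phagosomes, went from 12.4, 21.4 and 14.1 to 125, 48.1 and 67.0 CPM at day 4 (2.32 ± 0.44, adjusted p = 0.00132). TAC replicate 1 was the highest for both at day 4. Lyz2 went from 67.9, 70.8 and 78.6 to 266, 179 and 182 CPM (1.53 ± 0.25, adjusted p = 0.000507), Laptm5, a lysosomal membrane protein, from 20.0, 23.1 and 24.4 to 77.6, 55.2 and 64.2 CPM (1.55 ± 0.26), and Cybb, the catalytic subunit of the phagocyte NADPH oxidase, from 16.6, 21.1 and 19.7 to 63.0, 43.5 and 45.6 CPM (1.40 ± 0.26). The day 4 calls of these 5 genes held without each library.

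Among the general receptors and adaptors the calls differed by gene. The high-affinity Fc receptor gene Fcgr1 (1.97 ± 0.42), the low-affinity Fcgr3 (1.56 ± 0.24), and the adaptors Fcer1g (1.43 ± 0.29) and Tyrobp (1.67 ± 0.29) rose at day 4, each in all 6 fits that left out a library. Tyrobp, which relays signals of Trem2, went from 2.02, 3.57 and 2.57 to 10.4, 6.89 and 8.93 CPM at day 4 and from 1.89, 2.77 and 2.31 to 7.14, 4.09 and 6.14 CPM at day 7 (1.33 ± 0.30, adjusted p = 0.00495). Tyrobp and Csf1r were the only genes of the 35 whose day 7 call held in all 6 fits. The scavenger receptor Msr1 had its largest effect at day 2, from 6.19, 7.02 and 4.80 to 8.45, 14.5 and 33.1 CPM (1.64 ± 0.32, adjusted p = 0.00933, called in 3 of 6 fits), and 1.13 ± 0.33 at day 4. Cd14, a coreceptor for bacterial lipid, rose at days 2, 4 and 7 by a similar size (1.005, 0.97 and 1.04, SE 0.28 to 0.29). Clec7a, the receptor for beta-glucan, was the one general gene that did not pass at any day (0.11, 0.60, 0.61 and 0.62, SE 0.34 to 0.37), and Mertk, the receptor tyrosine kinase of dead cell uptake, passed at day 4 alone (0.53 ± 0.17, adjusted p = 0.0261, called in 3 of 6 fits).

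Genes of adhesion, migration and leukocyte identity make up the rest. Itgam, an integrin chain of monocytes, neutrophils and macrophages, rose at days 2, 4 and 7 (1.61 ± 0.30, 1.71 ± 0.31 and 0.96 ± 0.32). At day 2 its values were 10.01, 8.35 and 8.39 against 11.4, 26.4 and 43.2 CPM, so that replicate 1 of the TAC group was just above the sham libraries. Cx3cr1, the fractalkine receptor, rose at day 4 (1.58 ± 0.40) and had its largest effect at day 7, from 3.39, 4.24 and 4.26 to 19.9, 6.57 and 12.7 CPM (1.73 ± 0.43, adjusted p = 0.00853). Ms4a7, a tetraspan membrane protein of macrophages, had the largest effect of the general genes at day 4, from 2.29, 2.60 and 3.53 to 24.7, 11.3 and 17.97 CPM (2.67 ± 0.56, adjusted p = 0.00234). At day 7 Ms4a7 was at 18.8, 1.84 and 7.15 CPM after TAC (2.24 ± 0.59, adjusted p = 0.011), with replicate 2 below the sham libraries at 1.89 to 2.04 CPM. Cd52, a small surface glycoprotein of leukocytes, rose at days 2 and 4 (1.85 ± 0.49 and 1.84 ± 0.48), Ptprc, the common leukocyte phosphatase, at days 4 and 7 (1.31 ± 0.36 and 1.13 ± 0.37), and Aif1, an actin-binding protein of macrophages, at day 4 (1.17 ± 0.33).

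Most genes had their largest fitted effect at day 4. The largest of the 4 log2 fold changes fell at day 2 for 5 of the 35 genes, at day 4 for 25, at day 7 for 2 and at day 21 for 3. The 5 genes of day 2 were Lyve1, Chil3, Lgals3, Cd52 and Msr1, and the 3 of day 21 were Cd163, Plac8 and Clec7a, none of which passed the test at day 21.

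No difference of the effect between days passed edgeR's test for any of the 35 genes. Comparing the effects of day 4 with day 2, of day 7 with day 4, and of day 21 with each of days 7, 4 and 2 gave 0 calls each, against 0%, 0.0507%, 0.0651%, 0.00724% and 0.0145% of all genes. At an unadjusted p under 0.05, 8 genes were higher at day 4 than at day 2, 7 lower at day 7 than at day 4, 1 higher at day 21 than at day 7, 17 lower at day 21 than at day 4 and 4 lower at day 21 than at day 2. In the same order and direction the counts over all 13816 genes were 712, 519, 717, 897 and 560. Of the 35 genes, DESeq2 called 1, Csf1r, for day 21 minus day 4 (edgeR -0.79 ± 0.19, adjusted p = 0.164) and 0 for the other pairs, and limma-voom called 0 for all pairs. For a difference over all 4 days at once, 0 of the 35 passed against 0.369% of all genes, and limma-voom called 0. At an unadjusted p under 0.05 there were 10, against 1794 of all genes. These pairs share libraries of a day, and are not independent of each other.

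Sham hearts over the 4 days differed in 1 gene, Csf1 (adjusted p = 0.0403), against 0.68% of all genes. Without adjustment, 6 of the 35 genes had a p under 0.05 in that test, against 1302 of all 13816 genes. These were the resident genes Lyve1, Mrc1, F13a1 and Cbr2, the recruited gene Plac8, and Csf1. So 4 of the 7 resident genes were among them, and the sham level of this class may not have been steady over days. Csf1 was at 69.5 to 94.5 CPM in sham libraries at day 2, 64.1 to 83.8 at day 4, 89.5 to 124 at day 7 and 57.7 to 69.9 at day 21. The gene was thus high at day 7 in sham hearts, the day on which its TAC effect was negative. The call was lost in 8 of the 12 fits that left out a sham library.

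The order of the libraries was shared across the genes. In the TAC group of day 2, replicate 1 was the lowest of the 3 libraries for 28 of the 35 genes and replicate 3 the highest for 28. Replicate 2 was the lowest for 26 at day 4, for 25 at day 7 and for 25 at day 21. The sham groups had such an order too, with replicate 3 the lowest for 26 at day 2. The median difference of the general genes from the mean of the sham libraries, on the log2 scale, was 0.14, 0.84 and 1.29 in the TAC libraries of day 2 and 1.71, 1.15 and 1.40 in those of day 4. It was 1.21, 0.33 and 0.88 at day 7 and 0.62, 0.12 and 0.79 at day 21. For the resident genes the same median stayed between -0.18 and 0.56 in all 12 TAC libraries.

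**Figure D4:**
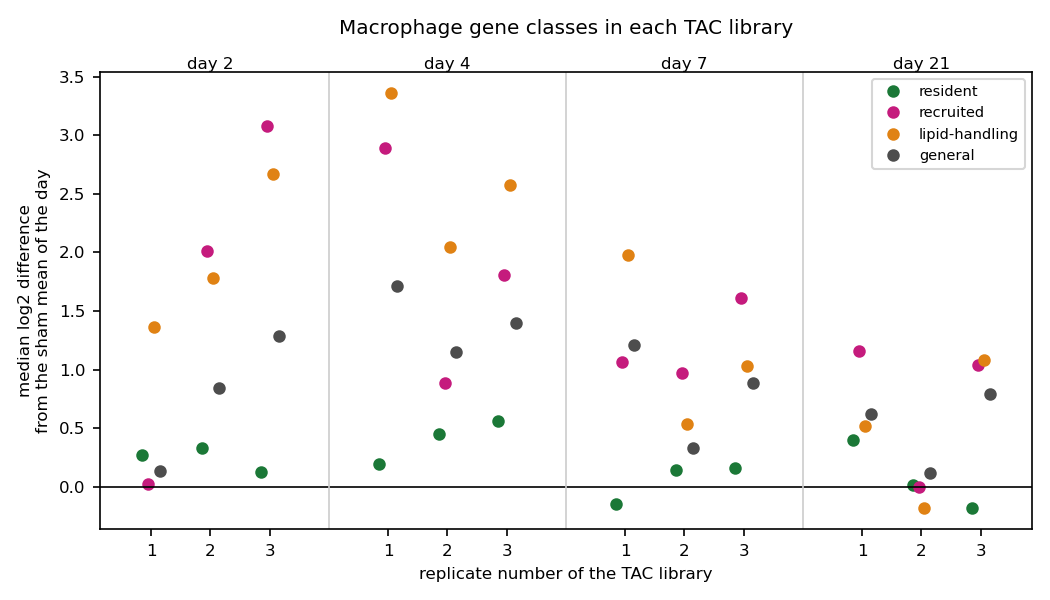
Median log2 difference (CPM with a prior count of 2) of each TAC library from the mean of the 3 sham libraries of its day, over the tested genes of each class (7 resident, 3 recruited, 3 lipid-handling and 22 general), by day and replicate number. Replicate 1 of day 2 and replicate 2 of days 7 and 21 sit lowest of their day for the general genes, at 0.14, 0.33 and 0.12, and the resident genes stay between -0.18 and 0.56.

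The same libraries stood apart in genes of other cells. In the TAC libraries of day 2, Col1a1, the fibroblast collagen, was at 179.9, 524 and 575 CPM and Myh6 at 44076, 35728 and 31736. At day 7 Col1a1 was at 2147, 319.5 and 826 CPM and Myh6 at 24247, 43374 and 33920, so that the library most often lowest in macrophage genes was lowest in collagen and highest in Myh6, as it was also at days 4 and 21. The part of this order in the results above was not tested.

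Genes outside the 36 that work in the same pathways were counted in the same way. The counts of all lists below stand beside the shares of all genes at days 2, 4, 7 and 21. These were 3.73%, 14.4%, 13.1% and 0.622% that rose, and 0.854%, 10.1%, 10% and 0.47% that fell. Counts at an unadjusted p under 0.05 stand beside 1717, 2784, 2783 and 1278 of all 13816 genes that were higher at these days. At that p, 1047, 2432, 2361 and 1122 were lower. Of 38 other macrophage and monocyte genes 10, 31, 15 and 0 rose at days 2, 4, 7 and 21 and 0 fell, with medians of 0.57, 1.48, 0.87 and 0.46. The complement genes C1qc (1.25 ± 0.17) and C1qb (1.44 ± 0.20), whose products tag debris for uptake, and Ms4a6c (2.01 ± 0.29) had the smallest p at day 4. Pf4, a chemokine that resident macrophages also make (1.08 ± 0.18), the secreted phosphoprotein Spp1 (6.39 ± 1.13) and the inhibitory receptor Lilrb4 (1.59 ± 0.32) led at day 2. Spp1 was at 4.26, 68.8 and 226 CPM in the TAC libraries of that day, the same order of replicates as Chil3 and Arg1.

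Of 19 tested genes that signal downstream of Tyrobp and Fcer1g 7, 16, 9 and 1 rose and 0 fell, among them at day 4 the phospholipase Plcg2 (1.01 ± 0.13), the adaptor Lcp2 (1.19 ± 0.20) and the lipid phosphatase Inpp5d (0.97 ± 0.17). Plcg2 was the 1 gene of day 21 (0.79 ± 0.13, adjusted p = 0.0102). Of 5 partners of Cybb in the NADPH oxidase, 1, 4, 1 and 0 rose, with Ncf1 at 1.58 ± 0.32 and Rac2 at 1.18 ± 0.27 at day 4.

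Growth factors and chemokines were covered by lists of their own. Of 8 tested colony-stimulating factors and receptors 0, 4, 3 and 0 rose, at day 4 the receptor chains Il3ra (1.31 ± 0.23), Csf2ra (1.05 ± 0.25), Csf2rb2 (2.05 ± 0.49) and Csf2rb (1.53 ± 0.45). At day 2, 4 of the 8 were higher at an unadjusted p under 0.05 and DESeq2 called 1. Il34, the other ligand of CSF1R, was at 0.991 ± 0.488 CPM in sham and 1.79 ± 0.348 in TAC hearts at day 4 (0.84 ± 0.38, adjusted p = 0.115). Of 10 tested monocyte-attracting chemokines and receptors 2, 6, 5 and 0 rose. Ccl2, the ligand of CCR2, went from 2.26 ± 0.032 to 13.7 ± 14.1 CPM at day 2 (2.61 ± 0.57, adjusted p = 0.0149), with 2.73, 8.73 and 29.6 CPM in its TAC libraries, and Ccl7, another ligand, from 1.13 ± 0.231 to 5.85 ± 5.41 CPM (2.38 ± 0.49). The chemokines Ccl12 (2.39 ± 0.53) and Ccl8 (1.86 ± 0.51) rose at day 4.

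Of 13 tested myeloid transcription factors 0, 7, 3 and 0 rose. Egr2 (3.37 ± 0.67), Runx1 (2.38 ± 0.48) and Maf (0.83 ± 0.18) had the smallest p at day 4, and at day 2, where the count was 0 in edgeR's test, 4 were higher at an unadjusted p under 0.05 and DESeq2 called 1. Several of them work in other cells of the heart as well, so that a change in whole tissue does not name the cell.

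Genes of lipid handling and of dead cell uptake were mixed. Of 16 lipid and lysosome genes 1, 8, 7 and 0 rose and 0, 1, 2 and 0 fell. The falls of days 4 and 7 were near the shares of all genes, 10.1% and 10%. The cholesterol exporter Abcg1 (1.14 ± 0.20), the protease Ctsb (0.61 ± 0.12) and the cholesterol carrier Npc2 (0.50 ± 0.10) rose at day 4. The members that fell were Cd36, a fatty acid transporter, at days 4 and 7 (-0.42 and -0.65) and Lpl, lipoprotein lipase, at day 7 (-0.70). Cd36 was at 1498 CPM in the sham hearts of day 7, and muscle and endothelium are known to hold most of both genes in the heart. Of 10 tested genes of dead cell uptake and scavenging 2, 6, 6 and 0 rose, led at day 4 by the scavenger receptor Stab1 (0.92 ± 0.13) and the receptor tyrosine kinase Axl (0.70 ± 0.14), a relative of Mertk.

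Markers of other leukocytes were low, and 1 gene of these lists passed the test. Of 5 tested neutrophil genes 0 passed at any day in edgeR's test, DESeq2 or limma-voom. At an unadjusted p under 0.05 in edgeR's test, 2, 1, 0 and 0 of these genes were higher at days 2, 4, 7 and 21. The 1 at day 4 was near the share of all genes. Of these 5 genes, 1 was lower at day 21 at that p. Their summed level, over 10 genes, was 6.81 to 11.4 CPM in sham and 7.16 to 28.7 in TAC libraries at day 2, and 9.91 to 11.5 against 14.05 to 14.5 at day 4. S100a8 and S100a9, the most abundant proteins of neutrophils, reached 4.21 and 2.53 CPM in TAC replicate 3 of day 2. The granule genes Ngp, Camp and Mpo were at or near 0. Of the genes of T and NK cells 0 of 1 tested passed, but the summed level of all 10 did not overlap at day 4 (2.92 to 3.17 CPM in sham, 3.62 to 5.35 in TAC libraries) or day 7 (2.57 to 3.55 against 3.93 to 5.68). At days 2 and 21 it overlapped. Of the B cell genes 0 of 3 tested passed, and the sum of all 5 was lower in every TAC library at day 4 (3.57 to 4.40 CPM in sham, 2.14 to 3.48 in TAC) and higher at day 7 (1.04 to 1.26 against 1.52 to 3.72) and day 21 (1.38 to 1.97 against 3.03 to 3.14). Of 5 tested dendritic cell genes 0 passed in edgeR's test, with 1, 2, 2 and 1 higher at an unadjusted p under 0.05 at days 2, 4, 7 and 21, and DESeq2 called 1 at day 4. Their median effects were 0.79, 0.58, 1.52 and 0.50. The sum of all 7 was 16.7 to 17.1 CPM in sham and 17.8 to 20.5 in TAC libraries at day 4. At day 21 it was 15.4 to 16.9 against 19.8 to 21.8 CPM, and it overlapped at days 2 and 7. Most of that sum came from genes other than Cd209a, Ccr7 and Flt3, each at 1.53 CPM or less in every library. Cd209a, a lectin of monocyte-derived dendritic cells, was at 0.108 CPM in sham and 0.829 in TAC hearts at day 4 (2.82 ± 1.03, adjusted p = 0.0507). Of 5 tested mast cell genes 1 passed, Kit at day 7 (0.83 ± 0.17), and of 3 platelet genes 0. The sum of all 6 mast cell genes was 9.67 to 13.5 CPM in sham and 19.0 to 20.3 in TAC libraries at day 7. At the other days it overlapped. Cpa3, another gene of that list, overlapped at day 7 too, at 0.868, 0.865 and 0.532 CPM in sham and 1.59, 0.561 and 1.33 in TAC libraries. The separated sum of day 7 is thus not shared by each gene of the list.

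Marker genes of cells that share single genes with the list moved in other ways. Prox1, the defining factor of lymphatic endothelium, which also carries Lyve1, fell at day 4 (-0.68 ± 0.15) and day 7 (-0.49 ± 0.15), while Pdpn rose at days 2 and 4 (1.93 ± 0.45 and 1.37 ± 0.46) and Flt4 at day 7 (0.37 ± 0.09). Summed over 6 genes the lymphatic list was at 250.4 to 274 CPM in sham and 164 to 219 in TAC libraries at day 4, with Ccl21a at 0 in every library. Most of that sum is Prox1, at 188, 177 and 199 CPM in sham and 120.1, 147 and 84.1 in TAC libraries. Flt4 was at 31.7, 28.8 and 33.3 CPM in sham and 31.1, 32.1 and 39.6 in TAC libraries of that day. Which cells held Prox1 was not tested and cannot be told from whole tissue. In blood endothelium Kdr, Tie1 and Tek fell at day 2 and Tie1 and Tek at day 4, and Pecam1 and Cdh5 rose at day 7. Of 7 fibroblast genes 3 rose at day 4 and 4 at day 7, and their sum ranged from 1054 to 1333 CPM in sham and from 2767 to 5350 in TAC libraries at day 4.

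Genes of dividing cells rose at the same days as the macrophage genes. All 5 of them rose at days 2, 4 and 7, and their sum was 18.4 to 27.4 CPM in sham and 46.7 to 206 CPM in TAC libraries at day 2. At day 4 it was 34.9 to 36.9 CPM in sham and 199.5 to 551 CPM in TAC libraries. Of 6 heart muscle genes 2 fell at day 4 and 4 at day 7. The part of these cell types in the values of the 36 genes was not tested, and whether the dividing cells were macrophages cannot be told from whole tissue. Of the 7 red blood cell genes, 6 were at 0 in every library, and Alas2 lay between 4.74 and 15.4 CPM. None of the 5 adipocyte genes passed the filter on low counts. Of 4 tested atrial genes 0 rose, and 1 fell at day 2 and 1 at day 4.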

How the data were processed

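RNA of left ventricles was sequenced in 24 libraries, 3 for each of sham and TAC at each of 4 days. Raw read counts of 24015 genes, and RPKM in another table, were deposited by the authors. Per the submitters' processing notes, TopHat and DESeq were used, with no version, and the build hg19 is named, which is human while the gene symbols are mouse. No label or file header names the mouse build, annotation or counter.

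The counts were tested with edgeR 4.0.16 in R 4.3.3, after filterByExpr by group (13816 genes left), TMM scaling and a quasi-likelihood fit of 8 group means. The fit had a biological coefficient of variation of 0.146 and 16 residual degrees of freedom. Benjamini-Hochberg adjustment ran over all tested genes at a threshold of 0.05. RPKM values served for levels per length and, on log2(RPKM + 0.1) and log2(RPKM + 1), for alternative tests with limma 3.58.1. Other alternatives were DESeq2 1.42.0, limma-voom, RLE scaling (DESeq2's size factors), no filter or 1 CPM in 3 libraries, a replicate block, fits of single days, and leaving out each library in turn. A fit without the 4 libraries over 30 CPM of Myl7 was chosen after seeing the data.

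The members and all gene lists were chosen with earlier results of these data known. All 36 members are accounted for; of other lists, counts are given with up to 3 genes of the smallest p at a day and genes against the majority, and genes beyond these were chosen after their values were seen. Replicate numbers are shared by the groups, but nothing ties them to a common animal or day. Replicates of a group differed by more than sampling noise in all 24 pairs (chi-square per degree of freedom 3.56 to 60.6). Promoter sequences are RefSeq's. An exact permutation test of 3 against 3 libraries cannot go below 0.1 and was not used.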

Additional observations from a re-analysis of the deposited data

How the results depend on the processing

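The counts of genes higher at day 4 (29) and on average over days (30) stayed within 1.5 times under every alternative run, at 23 or more and 27 or more. At day 2 (13 higher) limma-voom gave 5, and called 200 of all 13816 genes higher against 515 in edgeR's test. A fit of that day alone gave 0, limma on log2(RPKM + 0.1) 6 and on log2(RPKM + 1) 5, and leaving out a library 0 to 21. For the fit of that day alone and the RPKM tests, counts over all genes are not given here. Leaving out the 4 libraries with Myl7 leaves 1 sham library of the day, assumed to vary like the other groups, so no count is given. The count of genes lower at day 2 ranged from 0 to 1 on leaving out a library. At day 7 (18 higher) limma-voom gave 8, and called 1558 of all genes higher against 1816 in edgeR's test. Leaving out a library gave 2 to 20 at that day, and leaving out the Myl7 libraries 0. At day 21 (0 higher) log2(RPKM + 0.1) gave 1, Plac8, and leaving out a library 0 to 1. Among day differences (0 each), DESeq2 gave 1 for day 21 minus day 4, and leaving out a library gave 0 to 1 for day 21 minus day 2 and for all days at once. Over days in sham hearts (1), log2(RPKM + 0.1) gave 2, leaving out a library 0 to 1, and leaving out the Myl7 libraries 0. On average over days (0 lower), DESeq2, limma-voom and log2(RPKM + 0.1) gave 1 each, and leaving out a library 0 to 1. The cause was not tested. With the replicate block the counts higher were 10, 29, 19 and 0 at days 2, 4, 7 and 21 and 30 on average; Ccr2, Gpnmb, Cd14 and Fcgr1 lost and Plac8 gained a call at day 2. Same-numbered sham and TAC libraries deviated with correlations of -0.151 to 0.141. These show no pairing by number, but with 3 libraries a group they cannot exclude a weak one. RLE scaling moved the median of all genes by at most 0.0023. Over 2227 values of single genes, 0 called values changed sign. Genes with few reads, Chil3, Arg1 and Plac8, are limited by depth.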
